A study of Mus musculus with 24 samples.

Results

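The apolipoprotein L family was described in mouse dendritic cells grown from bone marrow, through the 9 family symbols Apol6, Apol7a, Apol7b, Apol7c, Apol7e, Apol8, Apol9a, Apol9b and Apol10b. All 9 were found by Ensembl identifier among the 55414 gene lines of the count files. The family was selected on its measured counts, for the large rise of Apol7c and Apol10b between the start of the experiment and 24 h later, so that rise is described here without a test. The 24 libraries of messenger RNA came from 2 kinds of culture in 8 groups of 3. Cultures grown in GM-CSF (20 ng/ml) together with FLT3L (200 ng/ml), harvested at day 16 and called cDC1 (type 1 conventional dendritic cells) by the submitters, are named FL cultures here. They received AZD5582 at 0.05 µM or its solvent DMSO for 24 h, or were taken at the start (t0). Cultures grown in GM-CSF (20 ng/ml) alone, harvested at day 8 and called moDCs by the submitters, are named GM cultures here. They were taken at t0, or after 24 h with DMSO or with AZD5582 at 0.1, 0.5 or 1 µM. AZD5582 blocks the inhibitor of apoptosis proteins (IAPs). Mice were Cas9-EGFP or wild-type C57BL/6JRj, and which libraries have which genotype is not given in the labels. FL libraries carry the culture numbers 91, 94 and 95, and GM libraries are numbered 1 to 3 within 1 culture number, so whether the GM libraries came from separate animals is not given and their p-values may measure technical spread.

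Apolipoproteins L are lipid-binding proteins with membrane-active, pore-forming domains, and most of them stay inside the cell. Human APOL1, which has no mouse counterpart, is the serum factor that lyses trypanosomes, and many members of the family respond to interferons. In mouse dendritic cells, APOL7C is known to be recruited to phagosomes and to make them leak, which lets engulfed antigen reach the cytosol for cross-presentation to CD8 T cells. The mouse APOL9 proteins, APOL9A and APOL9B, are known as interferon-induced antiviral factors.

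Some members of the family are close copies of one another, and all 9 lie on chromosome 15 of the mouse (GENCODE M21, GRCm38). In pairwise alignment of the longest annotated coding transcripts, Apol7b and Apol7e had 99.3% identical bases, Apol9a and Apol9b 95.5%, and Apol7a and Apol7c 89.2%. Apol7c had 77.5% identity to Apol7e, and Apol10b at most 59.5% to any other member. Cut into windows of 50 bases, 87.8% of the Apol7c transcript and 93.9% of the Apol10b transcript occurred in no other Apol gene, against 25.8% of Apol7b, 24.2% of Apol7e, 42.5% of Apol9a and 48.6% of Apol9b. With windows of 100 bases these shares were 97.2% for Apol7c, 100.0% for Apol10b, 43.1% for Apol7b, 41.6% for Apol7e, 58.9% for Apol9a and 65.1% for Apol9b. The files set aside 6.01% to 12.1% of reads per library for low alignment quality, so reads from the shared stretches may be missing from the counts of Apol7b, Apol7e, Apol9a and Apol9b, and the values of these 4 members are uncertain. No exon of Apol7c, Apol10b, Apol8 or Apol9b overlapped an exon of another gene.

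**Figure D1:**
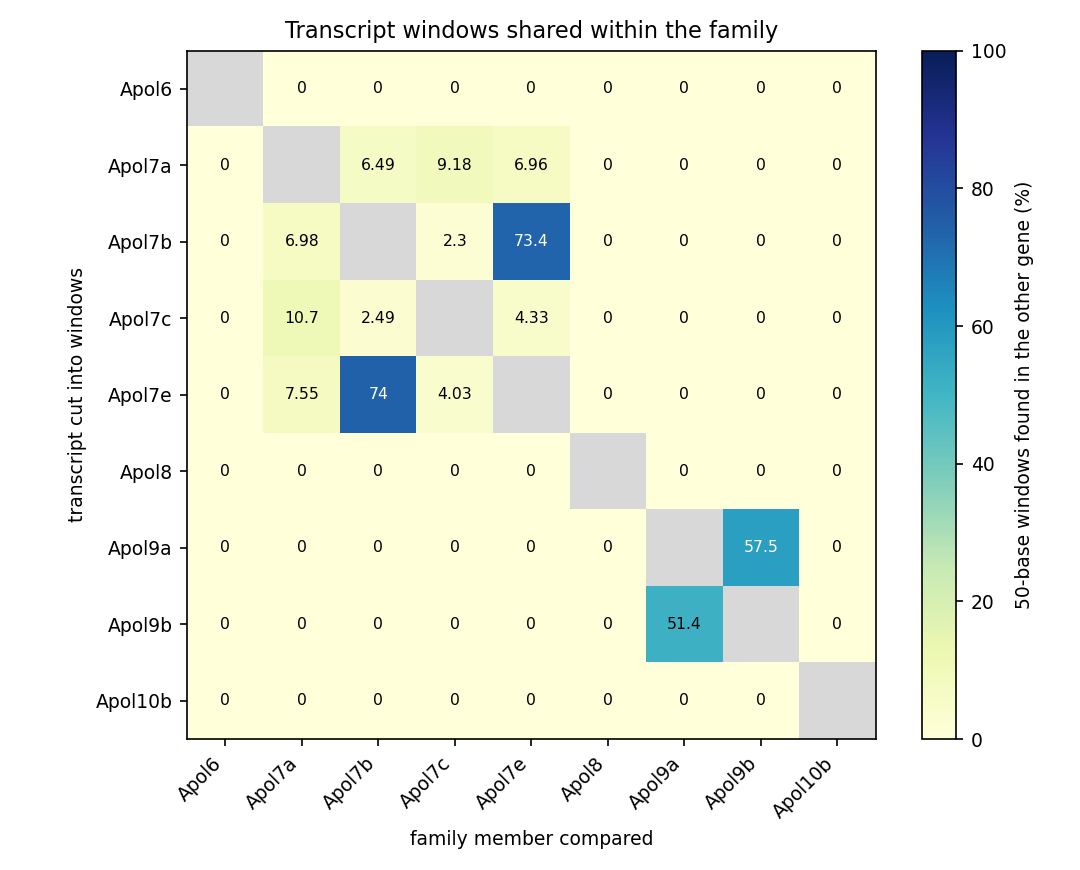
Share of each member's transcript, cut into 50-base windows (rows), that occurs in the transcripts of another member (columns), in percent. Apol7b and Apol7e share 73.4% and 74% of their windows and Apol9a and Apol9b share 57.5% and 51.4%, while Apol7c shares 10.7% with Apol7a and Apol10b none with the other members.

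Promoters are shown for the members that set the contrast of the family: Apol7c and Apol10b, which reached high levels, Apol7e and Apol7b, which are close copies of Apol7c at this place and had almost no counts, and Apol9b, the interferon-induced member. Sequences are from RefSeq on GRCm38.p6, run from 250 bases before to 50 after the annotated start, and are on the strand of the gene. Capitals mark the letters GAAANNGAAA or, on the other strand, TTTCNNTTTC, the core of an interferon-stimulated response element.
Apol7c, chr15:77533266-77533565, minus strand: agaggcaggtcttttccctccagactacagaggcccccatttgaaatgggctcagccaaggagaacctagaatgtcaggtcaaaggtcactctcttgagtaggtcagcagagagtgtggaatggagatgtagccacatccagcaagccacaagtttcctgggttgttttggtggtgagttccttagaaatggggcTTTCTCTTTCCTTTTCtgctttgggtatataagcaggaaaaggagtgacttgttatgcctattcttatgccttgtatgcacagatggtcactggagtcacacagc
Apol7e, chr15:77698639-77698938, plus strand: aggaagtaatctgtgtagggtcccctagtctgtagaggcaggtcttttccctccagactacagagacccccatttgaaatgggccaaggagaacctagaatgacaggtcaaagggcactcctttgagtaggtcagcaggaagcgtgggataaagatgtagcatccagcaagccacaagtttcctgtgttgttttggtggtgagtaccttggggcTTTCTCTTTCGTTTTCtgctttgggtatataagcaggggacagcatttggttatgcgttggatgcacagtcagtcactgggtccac
Apol7b, chr15:77447411-77447710, minus strand: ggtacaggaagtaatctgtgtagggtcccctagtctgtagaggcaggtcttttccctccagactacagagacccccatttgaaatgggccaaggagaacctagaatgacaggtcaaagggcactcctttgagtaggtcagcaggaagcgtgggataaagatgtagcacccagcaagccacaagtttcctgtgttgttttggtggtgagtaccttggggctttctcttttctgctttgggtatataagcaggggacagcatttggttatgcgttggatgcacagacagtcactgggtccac
Apol10b, chr15:77596076-77596375, minus strand: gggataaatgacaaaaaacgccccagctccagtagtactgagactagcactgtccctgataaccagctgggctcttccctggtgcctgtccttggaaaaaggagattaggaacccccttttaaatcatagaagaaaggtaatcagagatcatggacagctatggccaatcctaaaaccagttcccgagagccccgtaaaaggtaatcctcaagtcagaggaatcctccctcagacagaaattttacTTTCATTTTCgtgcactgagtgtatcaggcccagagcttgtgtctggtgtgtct
Apol9b, chr15:77728822-77729121, plus strand: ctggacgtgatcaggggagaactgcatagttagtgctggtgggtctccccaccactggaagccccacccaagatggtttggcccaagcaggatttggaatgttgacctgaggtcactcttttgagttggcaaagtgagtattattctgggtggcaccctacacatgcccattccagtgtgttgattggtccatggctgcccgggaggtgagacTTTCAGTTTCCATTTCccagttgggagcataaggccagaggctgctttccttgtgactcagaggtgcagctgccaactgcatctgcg

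RefSeq promoters were matched for 8 of the 9 members, with Apol6 not matched. The response element letters occurred in 5 of these 8 (Apol7c, Apol7e, Apol9a, Apol9b and Apol10b) and in 3.44% of all 32851 promoters of the same length. In Apol7c they occurred as an overlapping pair that began 55 and 49 bases before the start, in Apol7e as a pair that began 36 and 30 bases before it, and in Apol10b as a single copy that began 4 bases before it. In the Apol7b window they did not occur, although 293 of 295 aligned bases were identical between Apol7b and Apol7e. Apol7c was 89.5% identical to Apol7e and 89.7% to Apol7b over 267 and 262 aligned bases, so the members are not independent of one another in this count. The letters GGGNNNNNCC of an NF-kB site (either strand) occurred in 6 of the 8 members and in 50.8% of all promoters. The letters TTCNNNGAA of a gamma-activated sequence occurred in none of the 8 and in 8.3% of all promoters. A match of letters describes the sequence and does not show a bound factor.

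Counts on genes ranged from 27.01 M to 85.8 M (mega-counts) per library. Levels are given in CPM, read counts per 1 M counts of a library after TMM scaling of its total, unless a length-scaled level is named. The cDC1 label was checked against 8 markers: 7 of the 8 were higher in FL t0 than in GM t0 libraries, and their summed level was 2220 to 5280 CPM in FL t0 libraries, against 512 to 637 CPM in GM t0 libraries. Of all genes, 23.4% were called higher and 17.5% lower in FL t0 than in GM t0 libraries. FL t0 libraries also held 1280 to 4240 CPM of 8 neutrophil markers, against 294 to 351 CPM in GM t0 libraries. Of 11 macrophage markers FL t0 libraries held 815 to 1010 CPM, against 19600 to 25100 CPM in GM t0 libraries. The biological coefficient of variation was 0.39 in the model of FL libraries and 0.146 in that of GM libraries, so FL cultures differed more among themselves.

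Apol7c (ENSMUSG00000044309) held nearly all counts of the family, with 5559606 counts over the 24 libraries, followed by Apol10b (ENSMUSG00000050014) with 65606. Apol8 had 621 counts, Apol9b 246, Apol7a 110, Apol9a 62, Apol7e 36 and Apol7b 27. Apol6 had none in any library, which over 1292 M counts allows a level of up to 0.00232 CPM. The filter on low counts kept Apol7c, Apol8, Apol9b and Apol10b in the models of GM cultures and of all libraries, and Apol7c, Apol8 and Apol10b in the model of FL cultures. The other 5 members were not tested. Limits and intervals of counts cover counting error only. Folds against a group with 0 counts set that group to 3 counts and take the other count as exact.

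Apol7c had 11400, 5130 and 8150 CPM in FL cultures 91, 94 and 95 with 0.05 µM AZD5582, and 8840, 1360 and 1870 CPM in the same cultures with DMSO. In FL t0 libraries it had 148, 200 and 195 CPM. Culture 91 was the highest of the 3 in both groups taken at 24 h and the lowest at t0, and the AZD5582 and DMSO groups overlapped. In GM cultures Apol7c had 10.8, 13.2 and 9.03 CPM at t0, and 1850, 2720 and 2520 CPM after 24 h with DMSO. It had 6210, 5840 and 6890 CPM with 0.1 µM, 7050, 7280 and 8160 CPM with 0.5 µM and 6740, 7000 and 8700 CPM with 1 µM. Every AZD5582 library of the GM cultures was above every DMSO library, and every DMSO library above every t0 library.

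The order of the group means of Apol7c, from high to low, was 8220 ± 3130 CPM in FL cultures with 0.05 µM, 7490 ± 586 and 7480 ± 1060 CPM in GM cultures with 0.5 and 1 µM, and 6310 ± 533 CPM with 0.1 µM (SD, n = 3 each). Then came 4020 ± 4180 CPM in FL DMSO, 2360 ± 453 CPM in GM DMSO, 181 ± 29 CPM in FL t0 and 11 ± 2.09 CPM in GM t0 libraries (SD, n = 3 each). The ranges of neighbours in this order overlapped down to GM DMSO, and the last 3 groups did not overlap with one another.

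**Figure D2:**
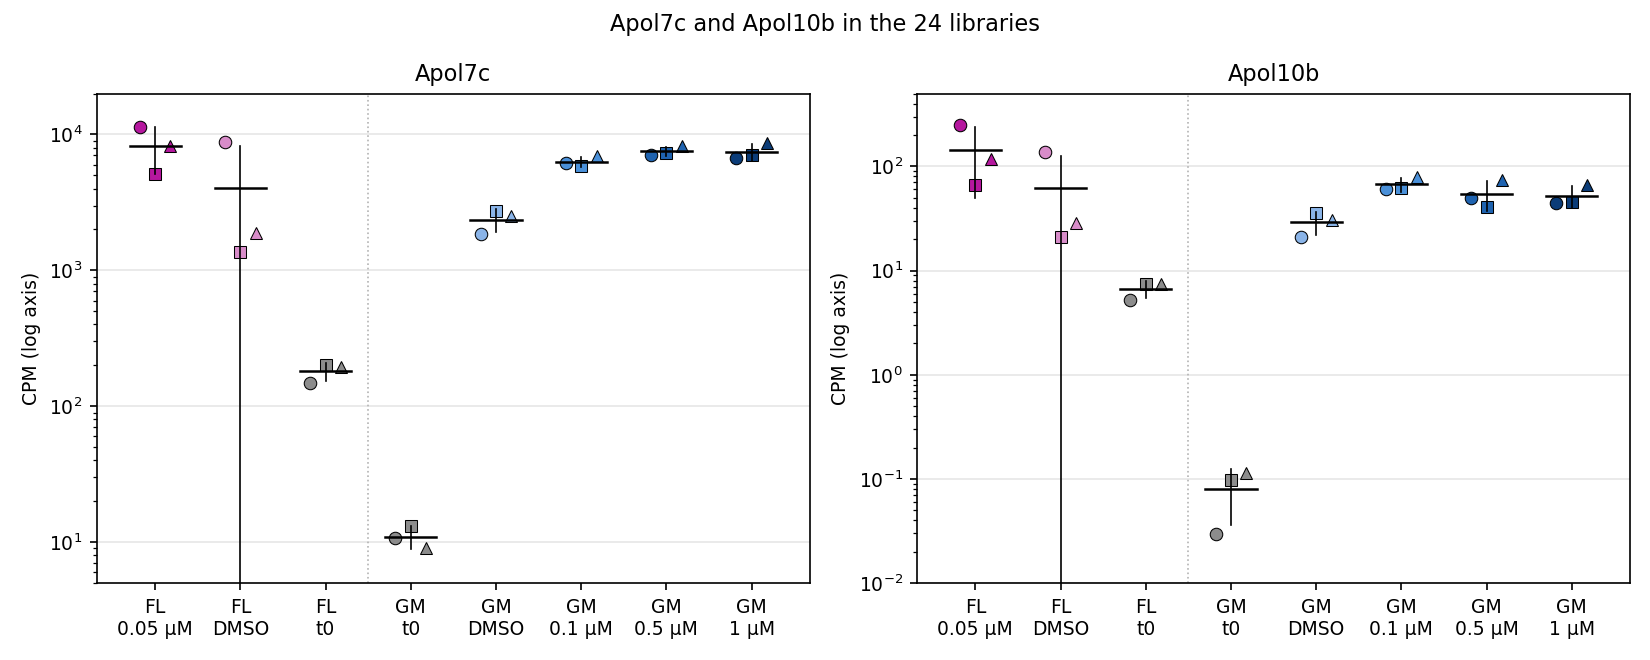
CPM of Apol7c and Apol10b (log axes) in each of the 24 libraries by group. Circles, squares and triangles are FL cultures 91, 94 and 95, or GM libraries 1, 2 and 3, horizontal lines are group means and vertical lines 1 SD, which in FL DMSO libraries exceeds the mean and runs off the lower end. Apol7c ranges from 9.03 CPM at GM t0 to 11400 CPM in FL culture 91 with AZD5582.

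Set against other genes by length, Apol7c was among the most abundant messenger RNAs of these cultures after 24 h. Counts per kilobase of exons, scaled to a common total (TPM) over 21927 protein-coding genes, gave Apol7c levels of 7930 to 15600 TPM in FL cultures with 0.05 µM, 2250 to 12700 TPM in FL DMSO and 260 to 356 TPM in FL t0 libraries. On this scale it ranked 5th to 13th with 0.05 µM, 8th to 47th with DMSO and 399th to 546th at t0. In GM cultures it ranked 5262nd to 6426th at t0, 24th to 36th with DMSO, and 12th to 14th, 11th to 12th and 9th to 17th with 0.1, 0.5 and 1 µM. Apol7c took 0.978% of all gene counts in FL culture 91 with AZD5582, and 0.00101% to 0.00145% in GM t0 libraries.

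Apol10b had 248, 65.9 and 118 CPM in FL cultures 91, 94 and 95 with 0.05 µM AZD5582, 136, 21.1 and 28.7 CPM in the same cultures with DMSO, and 5.24, 7.37 and 7.35 CPM at t0. As for Apol7c, culture 91 was the highest at 24 h and the lowest at t0. In GM cultures Apol10b had 2, 6 and 7 counts at t0, a mean of 0.0809 ± 0.0448 CPM (SD, n = 3), and 21.1, 35.5 and 30.6 CPM with DMSO. It had 60.3, 62.3 and 79.4 CPM with 0.1 µM, 49.3, 41.1 and 74 CPM with 0.5 µM and 44.7, 45.8 and 66.5 CPM with 1 µM. Libraries with AZD5582 were all above those with DMSO, and the 3 doses overlapped. The order of group means was 144 ± 93.7 CPM in FL cultures with 0.05 µM, 67.3 ± 10.5 CPM in GM cultures with 0.1 µM, 62 ± 64.4 CPM in FL DMSO, 54.8 ± 17.1 and 52.4 ± 12.3 CPM in GM cultures with 0.5 and 1 µM, 29.1 ± 7.35 CPM in GM DMSO, 6.65 ± 1.22 CPM in FL t0 and then GM t0 (SD, n = 3 each). Ranges of neighbours overlapped down to GM cultures with 1 µM. GM DMSO did not overlap with GM cultures with 1 µM above it or with FL t0 below it, nor FL t0 with GM t0. Scaled by length as above, Apol10b ranked 485th to 1499th in FL cultures with 0.05 µM, 1338th to 1738th in GM cultures with 0.1 µM, and 12545th to 13525th in GM t0 libraries.

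The change over 24 h in DMSO, on which these 2 genes were selected, was a rise of 7.74 ± 0.206 (SE) in log2 for Apol7c in GM cultures, or 214-fold, and of 8.46 ± 0.404 for Apol10b. In FL cultures the change was 4.48 ± 0.751 for Apol7c and 3.23 ± 0.771 for Apol10b. Within FL cultures 91, 94 and 95, Apol7c was 59.8, 6.77 and 9.58-fold higher with DMSO than at t0, and Apol10b 26, 2.86 and 3.91-fold, so culture 91 had the largest change of the 3 in both genes. Without the DMSO library of culture 91 the change in FL cultures was 3.15 for Apol7c and 1.9 for Apol10b. Apol8 and Apol9b, also in the GM model, had log2 values of -0.6 ± 1.08 and 0.797 ± 0.648 (SE) for DMSO against t0. The value of Apol9b was 2.18 without GM t0 library 2. Over all genes tested, 47.5% passed an adjusted p of 0.05 for this contrast in GM cultures and 10.1% in FL cultures, and nothing is read from the members against these shares, since the contrast chose them. Time in culture and exposure to DMSO cannot be told apart in it.

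Levels of Apol7c and Apol10b were higher with AZD5582 than with DMSO in GM cultures at every dose tested. For Apol7c the log2 fold change against DMSO was 1.49 ± 0.155 (SE, adjusted p = 5.14e-07) at 0.1 µM, 1.76 ± 0.157 (adjusted p = 3.25e-08) at 0.5 µM and 1.77 ± 0.157 (adjusted p = 2.68e-08) at 1 µM. These are 2.8, 3.38 and 3.4-fold differences. For Apol10b it was 1.28 ± 0.226 (SE, adjusted p = 0.000283) at 0.1 µM, 1.01 ± 0.225 (adjusted p = 0.0014) at 0.5 µM and 0.955 ± 0.225 (adjusted p = 0.00201) at 1 µM. Both genes were higher in 3 of 3 same-numbered libraries at each dose, by 2.15 to 3.8-fold for Apol7c and by 1.16 to 2.86-fold for Apol10b. The smallest of these ratios at every dose came from library 2, whose DMSO level was the highest of the 3. When the spread was estimated over all 24 libraries in 1 model, Apol7c stayed past the threshold and Apol10b did not, with adjusted p of 0.098, 0.173 and 0.202 at 0.1, 0.5 and 1 µM. The comparisons at the 3 doses share their DMSO libraries with each other and with the contrast over time, on which both genes were selected. Their p-values are therefore not independent of that selection, and they may measure technical spread. The FL comparison with DMSO shares its DMSO libraries with the contrast over time in the same way.

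Of the 4 members tested, 2 passed the threshold at 0.1 µM, where 40.3% of all genes did, 3 at 0.5 µM, where 53.5% did, and 2 at 1 µM, where 55.1% did. These counts lie near the shares over all genes, so they single out nothing about the family as a whole. Between 1 and 0.1 µM none of the 4 members passed in edgeR's test or in DESeq2, none had an unadjusted p under 0.05, and 18.8% of all genes passed. The difference was 0.281 for Apol7c (95% interval -0.0171 to 0.58, adjusted p = 0.224) and -0.328 for Apol10b (-0.764 to 0.109, adjusted p = 0.348), on the log2 scale. With no filter on low counts 2 members passed here as lower, Apol10b at -0.335 (adjusted p = 0.0372) and Apol9a, which had no counts with 1 µM (adjusted p = 0.0358). Without the filter, edgeR's adjusted p for Apol7c at 0.1 µM against DMSO was 1.58e-30, against 5.14e-07 with it, at a similar log2 fold change. The p-values of the 2 fits are therefore not comparable. The interval for Apol7c, up to 0.58, uses the normal quantile and is too narrow for so few libraries, so it sets no firm bound on a further rise.

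**Figure D3:**
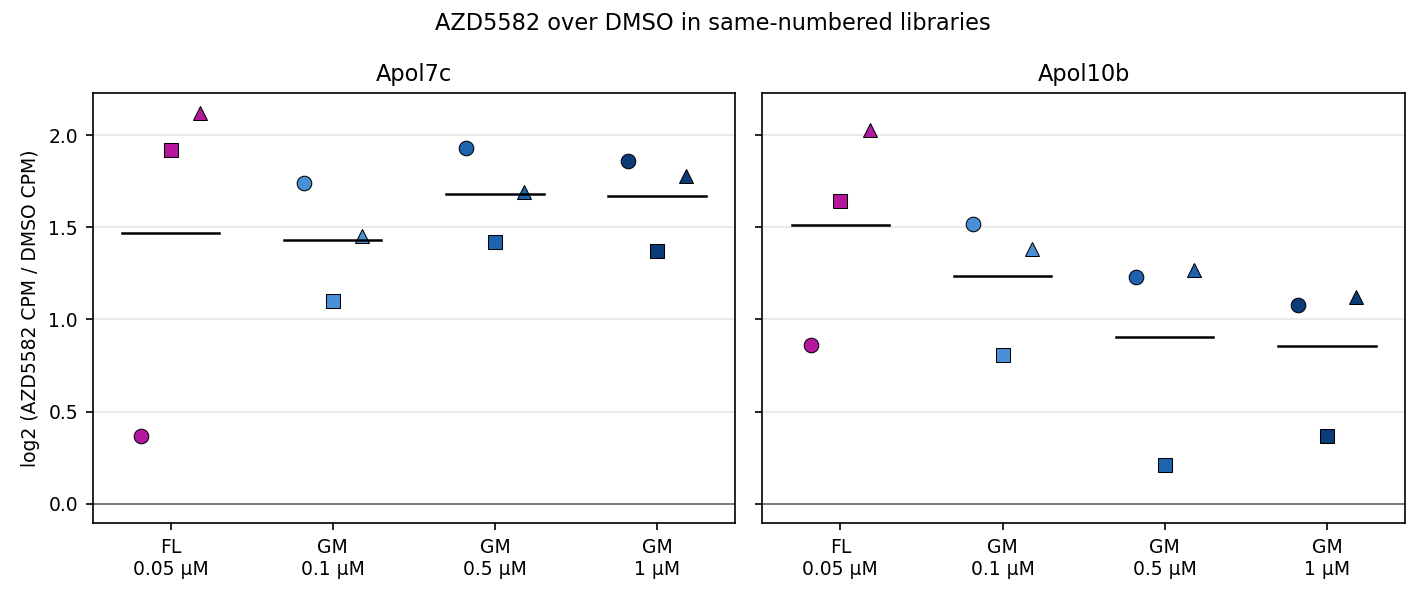
Log2 ratio of CPM with AZD5582 to CPM with DMSO for Apol7c and Apol10b, in the same FL culture (circle 91, square 94, triangle 95) or the GM library of the same number (circle 1, square 2, triangle 3), with lines at the mean of 3 ratios. All ratios are above 0, and the lowest for Apol7c, 0.366, is FL culture 91.

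The balance between Apol7c and Apol10b differed with dose. In GM cultures there were 76.4 to 88 counts of Apol7c for each count of Apol10b with DMSO, 86.7 to 103 with 0.1 µM, 110 to 177 with 0.5 µM and 131 to 153 with 1 µM. In FL cultures the ratio was 46 to 77.8 with 0.05 µM, 64.2 to 65.2 with DMSO and 26.6 to 28.2 at t0. The ratio in FL DMSO was nearly the same in the 3 cultures, although the level of Apol7c in culture 91 was several times that in the others. In GM t0 libraries the ratio was 79.3 to 360 and rested on 2 to 7 counts of Apol10b. These ratios are descriptions and were not tested.

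**Figure D4:**
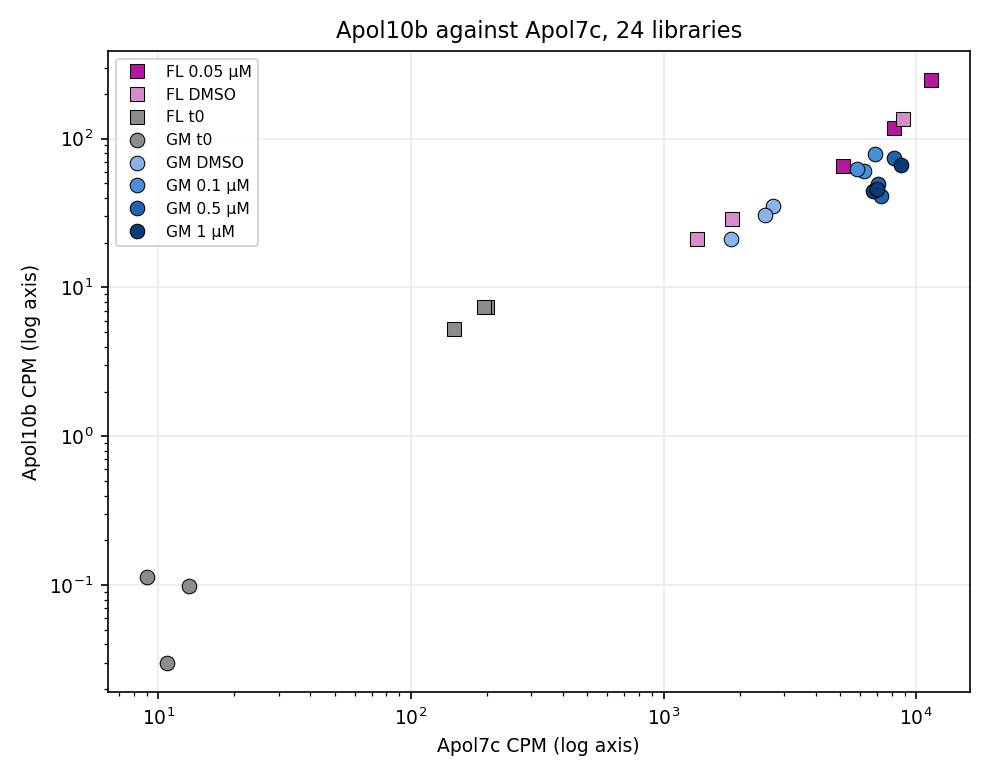
Apol10b against Apol7c in CPM (log axes), with 1 point for each of the 24 libraries, squares for FL and circles for GM cultures, coloured by group. The libraries run from GM t0 at the lower left to FL culture 91 with AZD5582 at the upper right, and GM libraries with 0.5 and 1 µM have less Apol10b for their Apol7c level than those with 0.1 µM.

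In FL cultures the values of Apol7c and Apol10b with 0.05 µM AZD5582 were above those with DMSO in each culture, but the difference did not pass the test. The log2 fold change was 1.03 ± 0.657 for Apol7c (SE, 95% interval -0.262 to 2.31, adjusted p = 0.474) and 1.21 ± 0.715 for Apol10b (-0.194 to 2.61, adjusted p = 0.433). Within cultures 91, 94 and 95 the ratios were 1.29, 3.78 and 4.35 for Apol7c, and 1.82, 3.12 and 4.09 for Apol10b. With the culture as a block in the model, the log2 fold changes were 1.32 for Apol7c (adjusted p = 0.206) and 1.42 for Apol10b (adjusted p = 0.169). Of the 6 libraries left out in turn, only the DMSO library of culture 91 changed the call. Without it both genes passed, at 2.4 (adjusted p = 0.00893) for Apol7c and 2.58 (adjusted p = 0.0257) for Apol10b. That fit kept the AZD5582 library of culture 91, the highest of its group. The lowest values were 0.614 for Apol7c, without the DMSO library of culture 94, and 0.605 for Apol10b, without the AZD5582 library of culture 91. Cultures 94 and 95 alone, a choice made after seeing the data, gave 2.08 (adjusted p = 0.00287) and 1.92 (adjusted p = 0.00601). In the model without a block, 2.9% of all genes passed (463 genes, against 1098 with the block). None of the 3 members tested passed there in edgeR's test or in DESeq2, and none had an unadjusted p under 0.05.

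The response to 0.05 µM in FL cultures minus that to 0.1 µM in GM cultures, whose doses differ, was -0.385 ± 0.627 for Apol7c (SE, 95% interval -1.61 to 0.843, adjusted p = 0.861) and 0.00159 ± 0.733 for Apol10b (-1.44 to 1.44, adjusted p = 1). Of the 4 members tested, none passed in edgeR's test or in DESeq2 and none had an unadjusted p under 0.05, while 1.67% of all genes passed. The intervals are too wide to show that the 2 culture types respond alike. For Apol7c this difference was 0.935 (adjusted p = 0.132) without the DMSO library of culture 91.

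Before any treatment, levels of Apol7c and Apol10b were higher in FL than in GM cultures. The t0 levels entered the rise on which the family was selected, so the members' differences at t0 are described without a test. Apol7c had a log2 difference between FL and GM of 4.04 ± 0.503 (SE), or 16.5-fold, and Apol10b of 6.34 ± 0.789, where GM t0 libraries held 15 counts of Apol10b in all. In both genes the groups did not overlap. Apol8 had 0.782, 0.822 and 0.232 CPM in FL and 0.12, 0.0165 and 0.179 CPM in GM libraries, also without overlap (log2 difference 2.52 ± 1.13, SE). Apol9b had 0 counts in 157.3 M in FL t0 libraries and 50 counts in 172.2 M in GM t0 libraries. With 3 counts over the group taken as the floor, Apol9b was 15.2-fold lower in FL. Its near copy Apol9a, with which reads may be exchanged, had 8 counts in FL and 14 in GM t0 libraries. With the counts of both summed there were 8 in FL and 64 in GM t0 libraries, and the log2 difference was -2.91. Over all genes, 40.9% passed an adjusted p of 0.05 for this contrast, and nothing is read from the members against that share. Culture type, harvest day and the other cells in the cultures cannot be told apart in these comparisons.

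After 24 h with DMSO the difference between culture types in Apol7c and Apol10b turned on culture 91. The DMSO levels also entered the rise on which the family was selected, so these 2 differences are described without a test. The log2 difference between FL and GM was 0.766 ± 0.446 for Apol7c and 1.09 ± 0.514 for Apol10b (SE). Without the FL DMSO library of culture 91 it was -0.555 for Apol7c and -0.226 for Apol10b. With cultures 94 and 95 alone it was -0.553 for Apol7c. Without the FL DMSO library of culture 94 it was 1.17 for Apol7c and 1.5 for Apol10b, and without that of culture 95 it was 1.43 for Apol10b. Apol8 passed as higher in FL, in a contrast in which 41.4% of all genes passed. Apol9b entered this model through its GM libraries alone, so its difference is described without a test.

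Apol8 was counted mainly in FL cultures. It had 3.6, 0.464 and 0.226 CPM in FL cultures 91, 94 and 95 with 0.05 µM and 2.49, 0.371 and 0.594 CPM with DMSO, so culture 91 was again the highest of the 3. In the 15 GM libraries it did not exceed 0.373 CPM. With DMSO it was higher in FL than in GM cultures by 4 ± 1.21 in log2 (SE, adjusted p = 0.0123), and this call was lost without FL DMSO culture 91 (2.76, adjusted p = 0.0824) or without GM DMSO library 2 (3.44, adjusted p = 0.0579). With AZD5582 against DMSO, Apol8 passed in neither culture type. Its log2 values were 0.762 ± 1.14, 1.04 ± 1.07 and 1.84 ± 1.06 (SE) at 0.1, 0.5 and 1 µM in GM cultures, with adjusted p of 0.634, 0.436 and 0.152, and 0.328 ± 1.07 (adjusted p = 0.912) in FL cultures. The value in FL cultures was -0.0976 with the culture as a block.

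Apol9b was nearly uncounted in FL cultures and low in GM cultures. In FL cultures it had 4 counts in the group with 0.05 µM, 4 in the DMSO group and none at t0. In GM cultures it had 0.0748, 0.609 and 0.13 CPM at t0, 0.268, 0.692 and 0.457 CPM with DMSO and 0.28, 0.56 and 0.233 CPM with 0.1 µM. It had 0.0845, 0.115 and 0.0798 CPM with 0.5 µM and 0.124, 0.214 and 0.308 CPM with 1 µM. All libraries with 0.5 µM lay below all DMSO libraries, while those with 0.1 and 1 µM overlapped with DMSO. In the DMSO groups there were 4 counts in 96.32 M in FL and 95 counts in 203.1 M in GM cultures, a log2 difference of -3.58 ± 0.947 (SE). Against DMSO in GM cultures, Apol9b fell by 2.2 in log2 at 0.5 µM (SE 0.724, adjusted p = 0.0159). At 0.1 and 1 µM the values were -0.362 ± 0.652 (adjusted p = 0.699) and -1.01 ± 0.675 (adjusted p = 0.219), neither past the threshold. The call at 0.5 µM rested on 17 counts with AZD5582 and 95 counts with DMSO. The libraries with 0.5 µM had 3, 9 and 5 counts, so the filter kept Apol9b through other GM groups. Its p and call at this dose are therefore descriptive only. The call was lost without DMSO library 2 (-1.8, adjusted p = 0.0785) or without library 3 of the 0.5 µM group (-2.09, adjusted p = 0.0594). With the counts of Apol9a and Apol9b summed the call held (-2.33, adjusted p = 0.0108), under the same limit.

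Apol9a, the near copy of Apol9b, had 0 counts in GM cultures with 1 µM, against 9, 10 and 5 counts with DMSO. This was 5.91-fold lower with 1 µM, with 3 counts over the group as the floor. With 0.1 µM it had 0, 11 and 3 counts and with 0.5 µM 2, 0 and 0. FL cultures had 0 counts of Apol9a in both groups taken at 24 h, and 0, 6 and 2 counts at t0. With DMSO this was 3.79-fold lower in FL than in GM cultures, with the same floor. Apol9a was removed by the filter on low counts. It passed as lower with 1 µM than with DMSO in DESeq2 (adjusted p = 0.024) and in edgeR with no filter (adjusted p = 0.0126). The p-values of edgeR with no filter are not comparable with those of the filtered fit.

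Apol7a, Apol7b and Apol7e, the close copies of Apol7c, were at the edge of detection even where Apol7c was among the most abundant transcripts. Summed over the 3 genes there were 44 counts in FL cultures with 0.05 µM, 10 in FL DMSO and 5 in FL t0 libraries, all 5 of the last in Apol7a of culture 91. In GM cultures the sums were 0 at t0, 12 with DMSO and 42, 30 and 30 with 0.1, 0.5 and 1 µM. Set against Apol7c, these sums were 30.7 counts per 1 M counts of Apol7c in FL cultures with 0.05 µM, 25.7 in FL DMSO and 153 in FL t0 libraries, the last from 5 counts. In GM cultures they were 0 at t0, where Apol7c itself had 2076 counts, 25.8 with DMSO, and 47.3, 22.5 and 29.5 with 0.1, 0.5 and 1 µM. In the groups taken at 24 h, transcription of these genes and reads of Apol7c that were placed on a copy cannot be told apart. Apol7a had at most 19 counts in a library, Apol7e 9 and Apol7b 5. Apol7b had 10, 6 and 4 counts in GM cultures with 0.1, 0.5 and 1 µM and 0 with DMSO. With 3 counts as the floor for DMSO this is 4.66, 2.12 and 1.8-fold higher. These folds take the 10, 6 and 4 counts as exact, so they are not lower bounds.

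**Figure D5:**
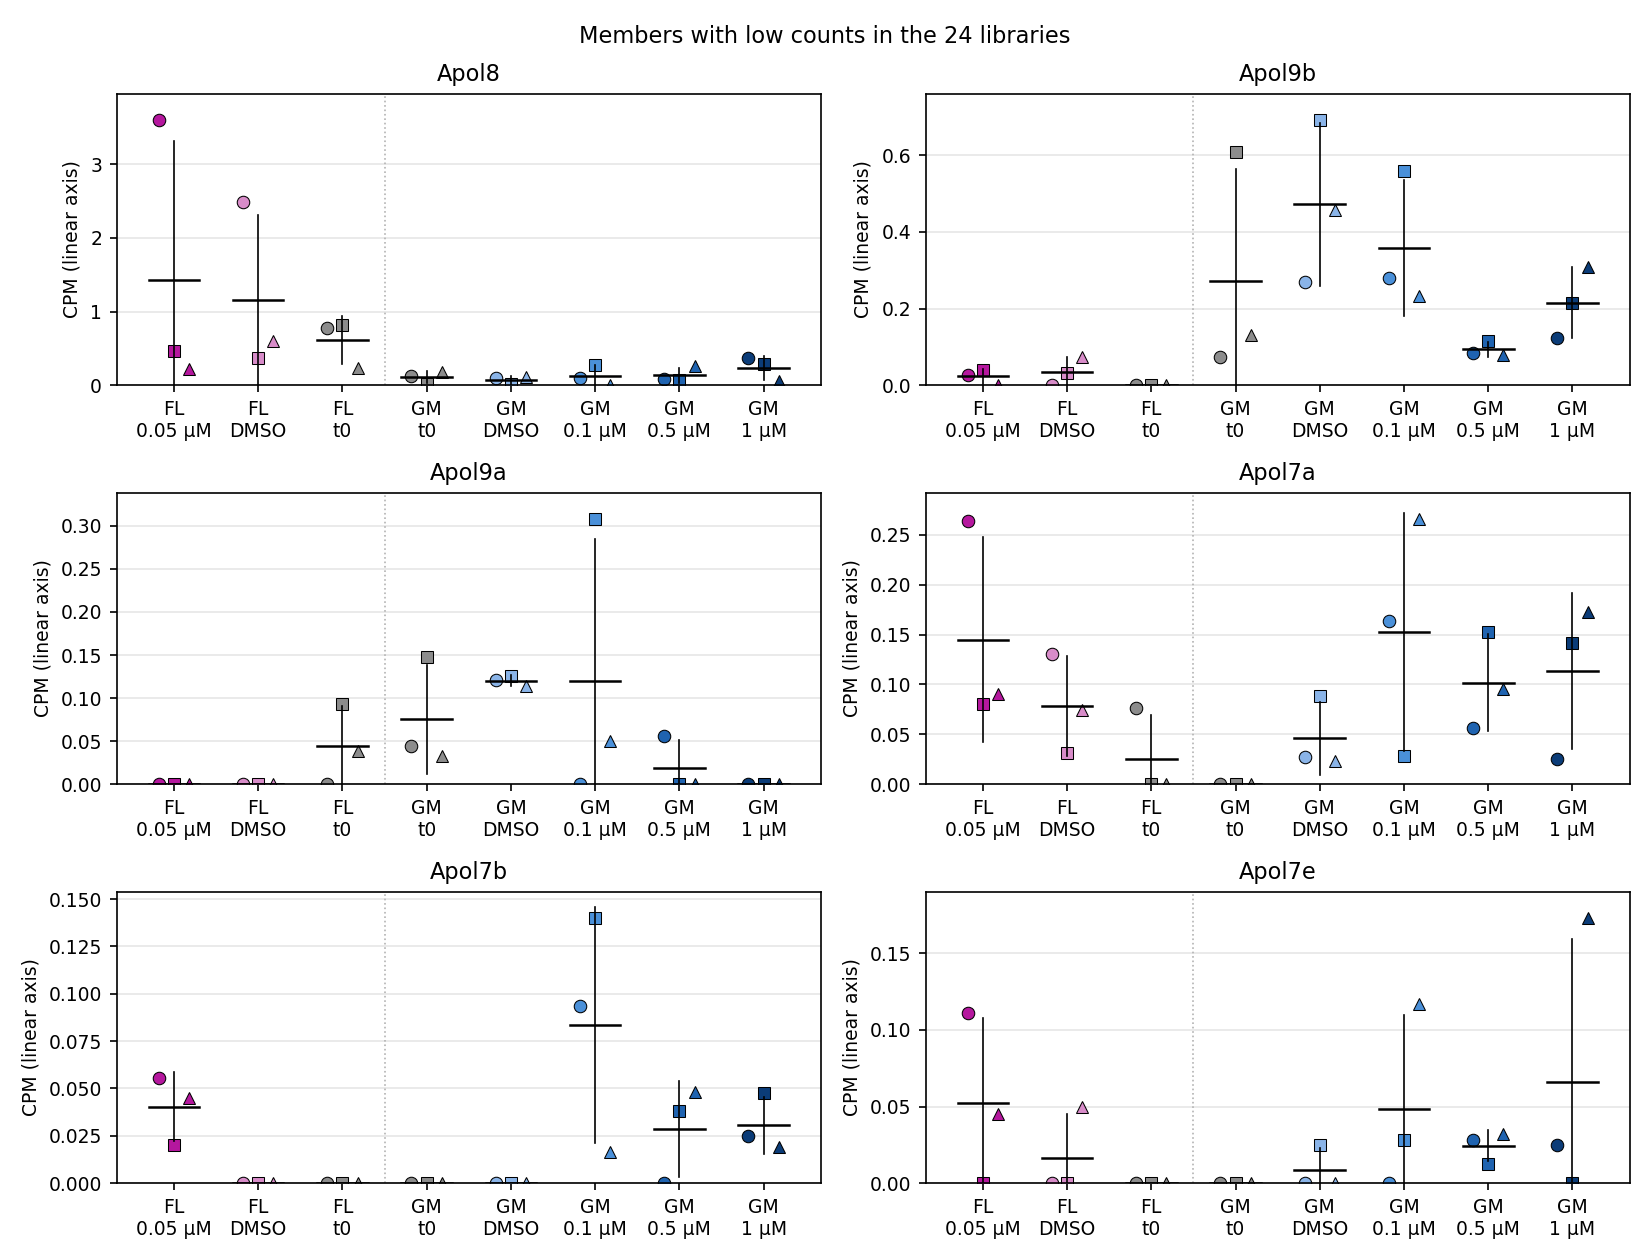
CPM of the 6 members with few counts (linear axes, each with its own scale) by group, with symbols, means and SD as for Apol7c and Apol10b. Apol8 is highest in FL culture 91, and Apol7a, Apol7b and Apol7e stay below 0.3 CPM. Apol9b and Apol9a lie mainly in GM cultures. There Apol9b has its lowest mean with 0.5 µM and overlaps with DMSO at 1 µM, and Apol9a is low with 0.5 µM and at 0 with 1 µM.

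Other Apol symbols outside the 9 were as low. Apol10a, which shares 5.23% of the 50-base windows of Apol10b, had no count in any library, Apol11a had 2 counts over all libraries, the pseudogene Apol10c-ps 9 and Apol7d 37. Apol11b had 72 counts, of which 24 were in GM DMSO libraries (22 of them in library 2) and 0 in GM t0 libraries, and Apold1, an endothelial early-response gene, had 328. Apold1 alone of these was tested in GM cultures, at a log2 of -0.497 ± 0.795 (SE, adjusted p = 0.622) for 1 µM against DMSO. At t0 its log2 difference between FL and GM was -1.64 ± 1.13 (SE, adjusted p = 0.263).

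Genes whose levels ran most like those of Apol7c over the 24 libraries were sought by Pearson's r of log2 CPM (prior count 2) among 9536 protein-coding genes outside the family that averaged 10 CPM or more somewhere. They were Ankrd33b (r = 0.9901), Cxcl16 (0.9897), which encodes a membrane-bound chemokine, Il4i1 (0.9882), a secreted amino acid oxidase, Aif1l (0.9865), the choline transporter gene Slc44a1 (0.9864) and Prkg1 (0.9861), a cGMP-dependent kinase. For Apol10b they were Myh7 (0.9925), a myosin heavy chain, Phf24 (0.9879), Grin2d (0.9877), an NMDA receptor subunit, Relb (0.9872), the transcription factor of non-canonical NF-kB signalling, Tmem150c (0.9858) and Traf1 (0.9851), an adaptor of TNF receptors. Apol7c and Apol10b had r = 0.9714 with each other (Spearman's rho 0.924), with 53 genes more like Apol7c and 34 more like Apol10b. Within the 15 GM libraries r was 0.993 and within the 9 FL libraries 0.985. The libraries fall into 8 groups and share t0 and DMSO, so these r describe a common course over groups and carry no p.

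The size of the course differed among these genes. Il4i1 averaged 91 ± 5.37 CPM in GM cultures at t0, 766 ± 175 CPM with DMSO and 1390 ± 116 CPM with 1 µM (SD, n = 3 each). Relb averaged 44.7 ± 3.38, 372 ± 38.1 and 550 ± 45.8 CPM in these groups (SD, n = 3 each). The means of Apol7c were 11, 2360 and 7480 CPM in the same groups. Aif1l averaged 0.728 ± 0.245, 38.9 ± 8.13 and 204 ± 47.5 CPM and Prkg1 0.0304 ± 0.0393, 5.89 ± 4.05 and 25 ± 8.26 CPM (SD, n = 3 each), so genes of the list covered both narrower and similarly wide ranges.

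Genes of mature dendritic cells moved in the same direction as Apol7c and Apol10b in GM cultures. Of 24 listed genes, 23 passed as higher and none as lower at each of the 3 doses, with a median log2 fold change of 1.2, 1.44 and 1.52 at 0.1, 0.5 and 1 µM, against medians over all genes of -0.00709, -0.0251 and -0.00513. Of all genes, 19.9%, 25.8% and 26.9% passed as higher at these doses. At 1 µM Tnfsf4 (OX40 ligand) was higher by 3.19 ± 0.159, the inhibitory ligand gene Cd200 by 2.93 ± 0.15 and the co-stimulatory receptor gene Cd40 by 2.66 ± 0.137 in log2 (SE; adjusted p = 3.01e-11, 3.81e-11 and 3.91e-11). In FL cultures 3 of the 24 passed as higher with 0.05 µM in the model without the culture block: the chemokine gene Ccl22 (2.27 ± 0.297, adjusted p = 0.011), Cd86 (0.976 ± 0.182, adjusted p = 0.0338) and Cd200 (1.56 ± 0.308, adjusted p = 0.0376). Of all genes, 1.62% passed as higher in the model without the block. With the culture as a block 5 of the 24 passed as higher, with Cd40 and Il15 added. At t0, 21 of the 24 were higher in FL than in GM cultures, with a median of 1.86 in log2 against 0.0931 over all genes, led by Mreg (2.36 ± 0.179 SE, adjusted p = 2.71e-09). Of all genes, 23.4% were called higher in FL cultures at t0.

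Genes of the type I interferon response, which many Apol genes belong to, moved in different directions over time and with 0.5 and 1 µM AZD5582 in GM cultures. After 24 h with DMSO, 12 of 24 such genes were called higher and 2 lower than at t0, where 27.2% of all genes were called higher and 20.3% lower, with a median log2 of 0.31 against 0.0873 over all genes. With AZD5582 against DMSO, 5 of the 24 passed as higher and 5 as lower at 0.1 µM, and 5 as higher and 17 as lower at both 0.5 and 1 µM, with a median log2 of -1.22 at 1 µM. Of all genes, 19.9% passed as higher and 20.3% as lower at 0.1 µM, so the counts at this dose lie near those shares. The shares were 25.8% and 27.7% at 0.5 µM and 26.9% and 28.2% at 1 µM. The antiviral genes Ifit2 (-2.95 ± 0.282), Oas2 (-2.41 ± 0.266) and Mx2 (-1.97 ± 0.224) were lower with 1 µM than with DMSO (log2, SE; adjusted p = 2.71e-07, 5.34e-07 and 6.42e-07). In FL cultures 1 of the 24 passed, Xaf1, which was lower with 0.05 µM (-1.15 ± 0.228, adjusted p = 0.038), where 1.28% of all genes passed as lower. With the culture as a block Mx1 and Mx2 passed as lower as well. After 24 h with DMSO in FL cultures, 0 of the 24 were called higher and 9 lower than at t0. Their median log2 was -0.901 against 0.0342 over all genes, of which 4.96% were called higher and 5.18% lower. The direction over time thus differed from that in GM cultures. Of 20 genes of the type II interferon response, 8 passed as higher and 9 as lower at 1 µM in GM cultures, where 26.9% of all genes passed as higher and 28.2% as lower, Irf1 being higher by 1.61 ± 0.103 (adjusted p = 4.25e-10) and the guanylate-binding protein gene Gbp3 lower (-1.21 ± 0.096, adjusted p = 6.37e-09).

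Of 10 tested genes for interferon and TNF ligands and receptors, 8 passed as lower and 1 as higher at 1 µM in GM cultures. Of all genes, 28.2% passed as lower and 26.9% as higher there. The receptor genes Ifngr1 (-1.92 ± 0.1), Tnfrsf1a (-1.37 ± 0.111) and Ifnar1 (-0.903 ± 0.0796) were lower (log2, SE; adjusted p = 4.3e-11, 8.32e-09 and 2.5e-08), and the adaptor gene Ticam1 was higher by 0.277 ± 0.0903 (adjusted p = 0.0148). Genes with a part in the escape of antigen from phagosomes and in cross-presentation, the process APOL7C is known for, had 4 of 13 tested members called higher and 5 called lower at 1 µM, to be read against those shares over all genes. Among them were Wdfy4 (-3.26 ± 0.151), the pore-forming Mpeg1 (-2.39 ± 0.123) and the NADPH oxidase subunit gene Cybb (-2.27 ± 0.127), which were lower, and the tapasin gene Tapbp, which was higher by 1.01 ± 0.103 (log2, SE; adjusted p = 1.09e-11, 3.87e-11, 9.33e-11 and 1.77e-07). In FL cultures with 0.05 µM, 2 of 14 passed, Mpeg1 (-1.81 ± 0.365, adjusted p = 0.0402) and the chemokine receptor gene Xcr1 (-3 ± 0.595, adjusted p = 0.0383), both lower, and Cybb passed as lower too with the culture as a block. Without the block 1.28% of all genes passed as lower.

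Markers of other cells also changed, over time and with AZD5582. After 24 h with DMSO in GM cultures, 7 of 11 macrophage markers were called higher and 2 lower than at t0. Their summed level at t0 was 19600 to 25100 CPM. Of all genes, 27.2% were called higher and 20.3% lower in that contrast. In FL cultures none of the 11 was called over this time, where 10.1% of all genes were. Of all genes, 26.9% were called higher and 28.2% lower with 1 µM than with DMSO in GM cultures. With 0.05 µM in FL cultures and no block these shares were 1.62% and 1.28%. In GM cultures, 11 of 11 macrophage markers were lower with 1 µM than with DMSO, and their summed level was 4070 to 5260 CPM with 1 µM, against 29200 to 35600 CPM with DMSO. All 8 of 8 neutrophil markers were lower, with sums of 6.17 to 14.3 CPM against 397 to 647 CPM and Elane at 0 with 1 µM. The 8 cDC1 markers summed to 2030 to 2180 CPM with 1 µM, against 789 to 933 CPM with DMSO, with 2 of 7 tested called higher, Irf8 among them (1.71 ± 0.102, adjusted p = 1.8e-10), and 3 called lower. The count called higher lies near the share over all genes. Xcr1, a defining cDC1 marker, was at 0 in GM cultures with 0.5 and 1 µM and averaged 0.00838 CPM with DMSO. In FL cultures the cDC1 markers summed to 1610 to 3750 CPM with 0.05 µM and 915 to 1680 CPM with DMSO, while 3 of the 8 were called lower (Cadm1, Xcr1 and Tlr3). With the culture as a block Irf8 was called higher as well. Macrophage markers in FL cultures summed to 347 to 760 CPM with 0.05 µM, against 941 to 1560 CPM with DMSO, and 4 of 11 were called lower, C1qc (-3 ± 0.339, adjusted p = 0.00784) and C1qa (-2.66 ± 0.314, adjusted p = 0.00814) among them, and Mertk higher (1.66 ± 0.213, adjusted p = 0.0104). Neutrophil markers summed to 185 to 3620 CPM with 0.05 µM and 2120 to 9910 CPM with DMSO in FL cultures, and 6 of 8 were called lower with the culture as a block but none without it. Mast cell and basophil markers summed to 125 to 202 CPM in GM cultures with 1 µM and 97.3 to 151 CPM with DMSO, 3 of 6 being higher, and endothelial and stromal markers to 2.77 to 3.43 CPM and 9.21 to 20.6 CPM, 6 of 6 tested being lower. In bulk RNA, fewer cells of a type and less RNA per cell cannot be told apart, and the part that changes in cell types play in the levels of Apol7c, Apol10b and Apol9b was not tested.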

How the data were processed

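The authors deposited raw read counts per gene for 24 libraries. Per the labels' protocols, RNA (RNeasy, RIN above 8) went into TruSeq Stranded mRNA libraries for a NovaSeq6000. Per the submitters' processing notes, STAR 2.7.3a, the build GRCm39, HTSeq 0.12.4 and DESeq2 1.30.1 were used. The strand setting and the annotation used for counting are not given there. Lines that name no gene took 10.98% to 16.4% of reads per library and were left out.

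Symbols came by Ensembl identifier from GENCODE M21 (GRCm38), which named 52081 identifiers. Counts were tested with edgeR 4.0.16 in R 4.3.3 (TMM, filterByExpr, robust quasi-likelihood, Benjamini-Hochberg adjustment over all genes tested, threshold 0.05). GM cultures (15 libraries, 16152 genes) and FL cultures (9 libraries, 15961 genes) were modelled apart, and comparisons between them used all 24 libraries (17262 genes). Each standard error is the log2 fold change over the root of its F statistic, and 95% intervals span 1.96 standard errors either way. This is the normal quantile, so the intervals are too narrow for so few libraries, most of all within FL cultures. The code was tested on simulated data. Sequences were aligned with biopython 1.88.

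Deviations of FL libraries from the same culture were correlated in 9 of 9 pairs (r 0.123 to 0.64), so culture numbers pair these libraries. The FL tests reported first have no block, so their standard errors and intervals do not use this pairing. Where a call or count differs, values with the culture as a block stand beside those tests or in the closing section on processing. In GM cultures 3 of 30 same-numbered pairs were over 0.1.

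Members, gene lists and tests were chosen with earlier results of these data known, so no list is independent evidence of its direction. From each list the text names up to 3 genes with the smallest p and 1 called the other way, and the 6 genes most like Apol7c and Apol10b. DESeq2 1.42.0, other scalings, filters, sample sets, a replicate block and leaving out each library were alternatives.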

Additional observations from a re-analysis of the deposited data

How the results depend on the processing

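Apol7c in GM cultures kept its direction and call at all 3 doses under every alternative run. With all 24 libraries in 1 model, 3874 genes and 1 member (Apol7c) were called at 0.1 µM, 1 member at 1 µM, 441 genes between 1 and 0.1 µM, 2721 for 0.05 µM in FL cultures and 5307 for FL DMSO against t0. With only the libraries compared, the counts were 1785 between 1 and 0.1 µM, 31 for 0.05 µM, 582 for FL DMSO against t0, 3866 for FL DMSO against GM DMSO and 17 for the difference of responses. With no filter, 2 members were called between 1 and 0.1 µM and 187 genes for the difference of responses. DESeq2 called 1341 genes for 0.05 µM, 622 for the difference and 3125 for FL DMSO against t0. With FL cultures 94 and 95 only, added after seeing the data, 2283 genes and 2 members were called for 0.05 µM and 800 genes for the difference.

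Culture as a replicate block gave 1098 genes for 0.05 µM, 738 for the difference and 3107 for FL DMSO against t0, with Apol8 at -0.0976 for 0.05 µM. It changed no call of a member. In GM cultures, where libraries share only a number, it called 6822, 8871 and 9113 genes at 0.1, 0.5 and 1 µM. No paired analysis was possible for FL against GM because each culture belongs to 1 type. Summing the counts of the Apol7 and of the Apol9 copies changed no call of a member.

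Leaving out 1 library gave 1831 to 2937 genes between 1 and 0.1 µM, 17 to 1983 genes and 0 to 2 members for 0.05 µM, 13 to 1454 genes for FL DMSO against t0, 93 to 591 for the difference, and 1 to 4 members for FL DMSO against GM DMSO. Log2 values that changed sign in this way ran from -0.642 to 1.43 for Apol8 and -0.815 to 0.0425 for Apol9b at 0.1 µM, and from -1.69 to 1.62 for Apol8 at 0.05 µM. For FL DMSO against GM DMSO they ran from -0.555 to 1.17 for Apol7c and -0.226 to 1.5 for Apol10b, and for the difference of responses from -0.793 to 0.935 for Apol7c and -0.643 to 1.32 for Apol10b.

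Signs also changed with cultures 94 and 95 only: Apol8 was at -0.444 for 0.05 µM, Apol7c at -0.553 and Apol10b at -0.222 for FL DMSO against GM DMSO, and Apol7c at 0.625 for the difference. The difference for Apol10b, near 0, was -0.0487 with median-of-ratios scaling, -0.046 with no filter, -0.0486 with DESeq2 and -0.0822 with only the libraries compared. The causes were not tested. Depth limits what can be said of Apol6, Apol7a, Apol7b, Apol7e, Apol9a and, in FL cultures, Apol9b.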
